A study of Homo sapiens with 4 samples.

Results

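The regions described here are the stretches of accessible chromatin at 9 genes of transforming growth factor beta (TGF-beta) signalling in A375 cells, an established human melanoma line. The genes are the ligands TGFB1, TGFB2 and TGFB3, the receptors TGFBR1, TGFBR2 and TGFBR3, the signal transducer SMAD3, the inhibitor SMAD7 and the matrix gene TGFBI. A region was included when it overlapped the RefSeq GRCh38 span of one of these genes extended by 10 kb on both sides, which gave 91 of the 125986 regions in the authors' deposited table. The rule for regions uses position alone, while the genes were chosen with earlier results of these data known. The assay was ATAC-seq, which uses the transposase Tn5 to cut and tag open DNA. Both groups were A375 cells kept in the same serum-containing medium; 2 libraries came from cells given 1 mM octanoate, a medium-chain fatty acid, for 48 h, and 2 from cells given the vehicle isopropanol for the same time. All cells belong to 1 line, and nothing in the labels says whether the 2 libraries of a group came from separate cultures, so the p-values may measure technical spread only.

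TGF-beta ligands are secreted in a latent form held by their propeptide and by latent TGF-beta binding proteins. Once released, a ligand binds the kinase TGFBR2, which recruits and activates TGFBR1; TGFBR1 phosphorylates SMAD2 and SMAD3, and these enter the nucleus with SMAD4 and bind DNA together with other factors. In melanoma the pathway is known for loss of the growth arrest it imposes on melanocytes, and for its link with invasive, less differentiated cell states.

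None of the 9 genes had a region past the threshold after octanoate. The table gives a mean normalized read count over the 4 libraries, a log2 fold change of octanoate over vehicle with its standard error, and p-values, and no value for a single library, so overlap between replicates cannot be shown. Its adjusted p-values covered only the 11185 regions whose mean reached 63.8 normalized reads, called tested regions below. Of the 91 regions 13 were tested, at 6 of the genes, and by DESeq2 with Benjamini-Hochberg adjustment 0 of these 13 had an adjusted p under 0.05 in the authors' deposited table, against 1.02% of all tested regions. The adjusted p of the 13 ran from 0.300 to 0.981. At an unadjusted p under 0.05 the authors' deposited table held 2 of the 13 as higher, at TGFBR2 and TGFBI, a share of 15.4% against 14.8% of all tested regions, and 0 as lower, against 0.107%.

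The fold changes of these genes lay within a distribution that was shifted as a whole. The median log2 fold change was 0.13 over the 91 regions and 0.23 over all listed regions in the authors' deposited table, and 61 of the 91 were above 0, a share of 67.0% against 72.1%. Relative to the median of all listed regions the members' median was -0.095, with 36 regions above it and 55 below. Among tested regions the median was 0.23 for the 13 members and 0.19 for all, and 11 of the 13 were above 0, which is 84.6% against 85.7%. Values relative to the tested median are therefore given as well, and are called centred. Because a bulk library pools many cells, a change in the share of cells with open DNA and a change in openness per cell cannot be told apart.

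**Figure D1:**
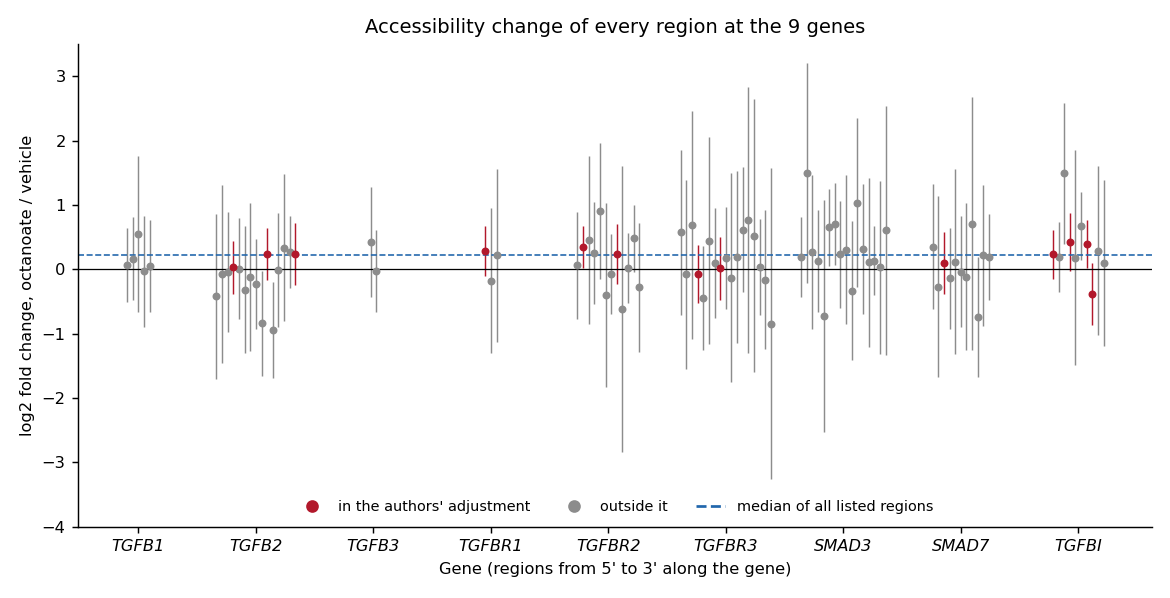
Log2 fold change of accessibility, octanoate over vehicle, for each of the 91 regions at the 9 genes, ordered from 5′ to 3′ within a gene; bars are 95% intervals from the deposited standard errors. Red regions are the 13 in the authors' adjustment and grey ones the 78 outside it, and the dashed line is the median of all listed regions, 0.23; all 13 red intervals stay between -0.863 and 0.868, while many grey ones are far wider.

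The precision differed sharply between the 2 kinds of region. The 95% intervals of the 13 tested regions, from the deposited standard errors, lay between -0.863 and 0.868 on the log2 scale, so 0 of them reached a doubling or a halving. Of the other 78 regions 55 had an interval that reached one or the other. The median standard error over all regions in the table was 0.883 at a mean under 10 normalized reads and 0.215 in tested regions, so a log2 fold change of 1.73 and 0.42, respectively, would be needed for an unadjusted p of 0.05. Changes of less than a doubling were thus not detectable in most weak regions.

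The start of each gene is where its promoter sequence can be set beside the regions. RefSeq lists 24 starts for the 9 genes, and each gene had at least 1 region within 1 kb of a listed start, 14 regions in all. The 250 bases upstream of the main start, the one nearest the 5′ end of the gene span, are shown for 3 genes that differ in how the regions lie over them (RefSeq sequence, GRCh38.p14, each on the gene's strand). Capitals mark matches, on either strand, to CAGAC (the core of the Smad box), TATAAA (the TATA box) and GGGCGG (the GC box bound by Sp1); TGANTCA, the AP-1 motif, was also searched and matched in none of the 9 main windows.
TGFB2, chr1:218345086-218345335, plus strand: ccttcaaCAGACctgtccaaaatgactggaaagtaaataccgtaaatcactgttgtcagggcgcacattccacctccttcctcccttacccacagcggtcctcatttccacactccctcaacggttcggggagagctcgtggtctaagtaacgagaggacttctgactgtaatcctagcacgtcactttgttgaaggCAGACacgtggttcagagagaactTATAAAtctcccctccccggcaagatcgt
SMAD7, chr18:48950966-48951215, minus strand: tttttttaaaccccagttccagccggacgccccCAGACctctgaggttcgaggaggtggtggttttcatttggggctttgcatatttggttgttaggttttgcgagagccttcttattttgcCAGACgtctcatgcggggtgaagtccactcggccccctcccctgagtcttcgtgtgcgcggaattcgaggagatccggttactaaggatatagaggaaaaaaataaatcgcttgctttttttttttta
TGFBI, chr5:136028738-136028987, plus strand: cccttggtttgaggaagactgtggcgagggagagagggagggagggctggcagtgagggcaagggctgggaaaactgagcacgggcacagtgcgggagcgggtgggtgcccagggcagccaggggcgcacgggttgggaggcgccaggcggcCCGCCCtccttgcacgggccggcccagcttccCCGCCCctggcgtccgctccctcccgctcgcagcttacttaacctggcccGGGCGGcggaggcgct

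These windows lay differently against the measured regions. The TGFBI window lay wholly inside a region and holds 3 GC boxes and no CAGAC. At TGFB2 no region covered the window; the nearest began 286 bases inside the gene, and the window holds a TATA box 29 bases upstream of the start and 2 CAGAC matches. The SMAD7 window, with 2 CAGAC matches, fell between 2 regions, 380 bases upstream and 357 bases inside the start. Over all 9 main windows CAGAC was found in 3 (TGFB2, TGFB3 and SMAD7), GGGCGG in 4 (TGFB1, TGFBR3, SMAD3 and TGFBI) and TATAAA in 1. Windows of further starts are not in these counts. No region covered the main TGFBR1 window, while the window of a further TGFBR1 start, wholly inside a region, holds 6 GGGCGG matches. That of a further TGFBR2 start holds 2, and a further start of TGFB3 and of SMAD7 each has a TATAAA. Of 34788 distinct upstream windows of the same length, 38% hold CAGAC, 42.6% GGGCGG, 10.8% TATAAA and 6.59% TGANTCA, so these matches are common letters and describe the windows only. The GC content of the 9 windows ran from 40.8% (TGFBR2) to 80.8% (SMAD3), around a median of 58% for all windows.

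Accessibility levels are given as mean normalized reads per kb of region over the 4 libraries. Of the 91 regions 62 were above 27.8 reads per kb, the median of all listed regions, and 8 were in the top 5%. The highest belonged to the starts of TGFBR1, at 119 reads per kb, and TGFBR2, at 113 reads per kb, the kinases of the signalling receptor. Next came regions inside TGFB2 and TGFBI: 101 and 91.6 reads per kb at 94.5 and 32.0 kb from the TGFB2 start, and 97.3, 96.4 and 91.5 reads per kb at 24.9, 8.4 and 14.0 kb from the TGFBI start. The TGFB1 start reached 24.8 reads per kb, below the median of all regions, and the TGFB3 start 32.2. The TGFB1 start region was 1745 bases wide, against a median of 437 for all listed regions. Its mean of 43.3 normalized reads was above their median of 12.2. No spread between libraries is given for these levels, so neighbours in this order cannot be tested against each other.

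**Figure D2:**
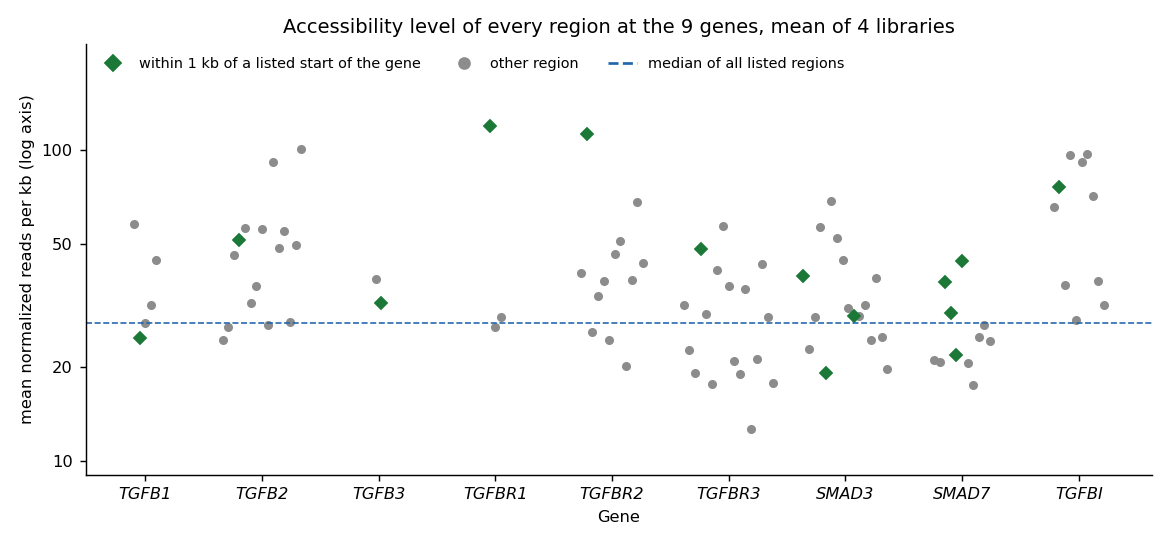
Mean normalized reads per kb (log axis) of each of the 91 regions by gene, averaged over the 4 libraries by the authors. Green diamonds lie within 1 kb of a listed start of the gene and grey dots do not, and the dashed line is the median of all listed regions, 27.8; the TGFBR1 and TGFBR2 starts are the highest at 119 and 113.

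Among the ligands, TGFB2 held most of the data, with 15 regions and 3 of them tested; TGFB1 had 5 regions and TGFB3 had 2, none tested. The median log2 fold change of the 22 ligand regions was -0.0017 in the authors' deposited table, with 11 above 0 and 11 below, the lowest of the member groups. For TGFB1 the start region (chr19:41352546-41354290) had a log2 fold change of 0.16 with an interval of -0.48 to 0.81. The other 4 regions near TGFB1 lay outside its span; 3 of them overlapped the neighbours CCDC97, or B9D2 and TMEM91, and cannot be assigned to TGFB1 by position. The strongest of the 5, over B9D2 and TMEM91, was at 0.068, and the one at 26.1 kb was at 0.55 with an interval of -0.66 to 1.76. The TGFB3 start region (chr14:75981780-75983076) was at -0.031, with an interval of -0.67 to 0.60, and the remaining region near TGFB3 covered the start of the neighbouring gene IFT43 and was at 0.42, with an interval of -0.43 to 1.27.

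TGFB2, the ligand that needs the co-receptor TGFBR3 for efficient binding, carried the 2 lower regions among the members that had an unadjusted p under 0.05 in the authors' deposited table. The region at 35.4 kb from its start (chr1:218380425-218381048) had a log2 fold change of -0.94 (standard error 0.38, unadjusted p 0.0138) in the authors' deposited table. With a mean of 30.2 normalized reads, its implied levels were 39.7 for vehicle and 20.7 for octanoate. The region at 29.5 kb (chr1:218374379-218375309) was at -0.84 (standard error 0.42, unadjusted p 0.0432) in the authors' deposited table, with implied levels of 32.7 for vehicle and 18.2 for octanoate. Implied levels are the 2 values that have the deposited mean as their average and the deposited fold change as their ratio. Both regions were outside the authors' adjustment, so neither passed a corrected test.

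The strongest TGFB2 regions did not share these low values. A tested region of 102.4 normalized reads at 32.0 kb, between the 2 low ones, was at 0.24 (interval -0.17 to 0.64), and the tested regions at the start and at 94.5 kb were at 0.030 and 0.23, in the authors' deposited table. Of the 15 regions 9 were below 0, and 4 were above the median of all listed regions. Among the 9 is a region upstream of TGFB2 (chr1:218336252-218336685) at -0.42, with an interval of -1.70 to 0.86. It overlapped the neighbour RRP15 and cannot be assigned to TGFB2 by position. The other 4 regions between 16.3 and 39.5 kb, all weak, were at -0.32, -0.12, -0.22 and -0.014. Whether neighbouring regions of TGFB2 differ from each other was not tested, since no value per library is given.

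In the authors' deposited table the receptors held 32 regions, 5 of them tested, and their log2 fold changes had 0.14 as the median. TGFBR2 is the kinase that binds the ligand and had 12 regions. Its start region (chr3:30606158-30607589, 162 normalized reads) was at 0.34 (standard error 0.17), with an unadjusted p of 0.0373 and an adjusted p of 0.300 (DESeq2) in the authors' deposited table. Its implied levels were 143 normalized reads for vehicle and 181 for octanoate. Centred, it was at 0.16 with an interval that includes 0. This region also covers the start of LOC105377015, so its signal cannot be given to TGFBR2 alone. The same limit holds for the start regions of TGFB2 and SMAD3, which lie within 1 kb of starts of TGFB2-AS1 and SMAD3-DT. The TGFBR2 region at 82.9 kb, just under the tested means at 60.4 normalized reads, was at 0.48 with an interval of -0.049 to 1.01. The tested TGFBR2 region at 52.9 kb was at 0.24 and the rest ran from -0.62 to 0.91, the extremes resting on means of 4.05 and 18.6 normalized reads.

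TGFBR1, the kinase that phosphorylates the Smads, had only 3 regions. Its start region (chr9:99104216-99106133) was the strongest of all 91 by mean, at 229 normalized reads, and was at 0.28 with an interval of -0.11 to 0.67 in the authors' deposited table. The 2 weak regions inside the gene were at -0.18 and 0.22. TGFBR3, the co-receptor betaglycan, had 17 regions, the most of any member, over a span of 226 kb. Its start region (chr1:91884825-91886650) and the region at 58.5 kb were tested and lay at -0.071 and 0.017 in the authors' deposited table. The other 15 ran from -0.85 to 0.77, and 0 of them had an unadjusted p under 0.05. The smallest p-values among these were at 119.1 kb, where the value was 0.61 with an interval of -0.36 to 1.58, and at 21.7 kb, where it was -0.45 with an interval of -1.25 to 0.36.

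At the Smad genes the authors' deposited table held 27 regions, whose log2 fold changes had 0.19 as the median, and 1 of them, at SMAD7, was tested. SMAD3 carries the signal into the nucleus, and 14 of its 16 regions were above 0, with 9 above the median of all listed regions. A pair of neighbouring regions inside SMAD3 had the smallest p-values there. The region at 40.0 kb (chr15:67105253-67105934) was at 0.65 (standard error 0.30, unadjusted p 0.0331) with implied levels of 36.5 normalized reads for vehicle and 57.3 for octanoate in the authors' deposited table. The region at 41.7 kb (chr15:67106860-67107668) was at 0.70 (standard error 0.33, unadjusted p 0.0308) with implied levels of 32.1 for vehicle and 52.2 for octanoate in the authors' deposited table. Both lay outside the authors' adjustment, at means of 46.9 and 42.1 normalized reads, and their centred intervals include 0. The main SMAD3 start (chr15:67065079-67066212) was at 0.20 with an interval of -0.43 to 0.82, and the strongest SMAD3 region, at 84.5 kb, was at 0.13. Regions at further SMAD3 starts, at 32.9 and 60.1 kb, were at -0.72 and -0.33 and were weak. The highest value of all members, 1.50 at 10.9 kb from the SMAD3 start, rested on a mean of 6.60 normalized reads and had an interval of -0.21 to 3.20.

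SMAD7, which blocks the receptor and is itself induced by the pathway, had 11 regions, with 6 above 0 and 5 below, and 2 above the median of all listed regions. Its strongest region (chr18:48951345-48953250), just upstream of the window printed above, was tested and lay at 0.10 with an interval of -0.38 to 0.58 and an adjusted p of 0.880 (DESeq2) in the authors' deposited table. The region on the other side of the main start was at -0.14, with an interval of -0.93 to 0.65. The lowest SMAD7 value was -0.74 at 20.7 kb (unadjusted p 0.121 in the authors' deposited table), and the highest was 0.71 at 17.0 kb, on a mean of 4.92 normalized reads.

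TGFBI encodes a secreted matrix protein named for its induction by TGF-beta, and it held 3 of the 8 member regions with an unadjusted p under 0.05. Of its 10 regions 9 were above 0, 6 were above the median of all listed regions and 4 were tested, and the authors' deposited table gave them a median of 0.26 on the log2 scale. The region at 3.8 kb (chr5:136032539-136032948) was at 1.49 (standard error 0.56, unadjusted p 0.00753) with a mean of 15.1 normalized reads in the authors' deposited table. Its implied levels were 7.91 for vehicle and 22.2 for octanoate, so the interval of 0.40 to 2.58 is wide. The region at 14.0 kb (chr5:136042654-136043327) was at 0.67 (standard error 0.27, unadjusted p 0.0133) in the authors' deposited table, with implied levels of 47.7 for vehicle and 75.7 for octanoate. Its mean of 61.7 was just under the lowest tested mean of 63.8. Of these 2 the first kept a centred interval above 0, with a centred p of 0.0194 recomputed from the authors' deposited table, and the second did not.

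The 4 tested TGFBI regions did not all lie on one side of 0. The region at 24.9 kb (chr5:136053259-136054500, 121 normalized reads) was at 0.39 (standard error 0.19), with an unadjusted p of 0.0409 and an adjusted p of 0.312 (DESeq2) in the authors' deposited table, with implied levels of 105 for vehicle and 137 for octanoate. The region 8.4 kb inside the gene was at 0.42, and the one 8.7 kb upstream of the start was at 0.23. The region at 29.5 kb (chr5:136058012-136059057, 74.6 normalized reads) was at -0.38 with an interval of -0.86 to 0.10. Centred, it was at -0.57 with a p of 0.0212 recomputed from the authors' deposited table, the 1 tested member with a centred p under 0.05. Such centred p-values were reached by 1.01% of tested regions as lower and by 3.16% as higher, where the members had 1 and 0. The TGFBI start itself (chr5:136028593-136029341) was at 0.19, with an interval of -0.35 to 0.74.

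**Figure D3:**
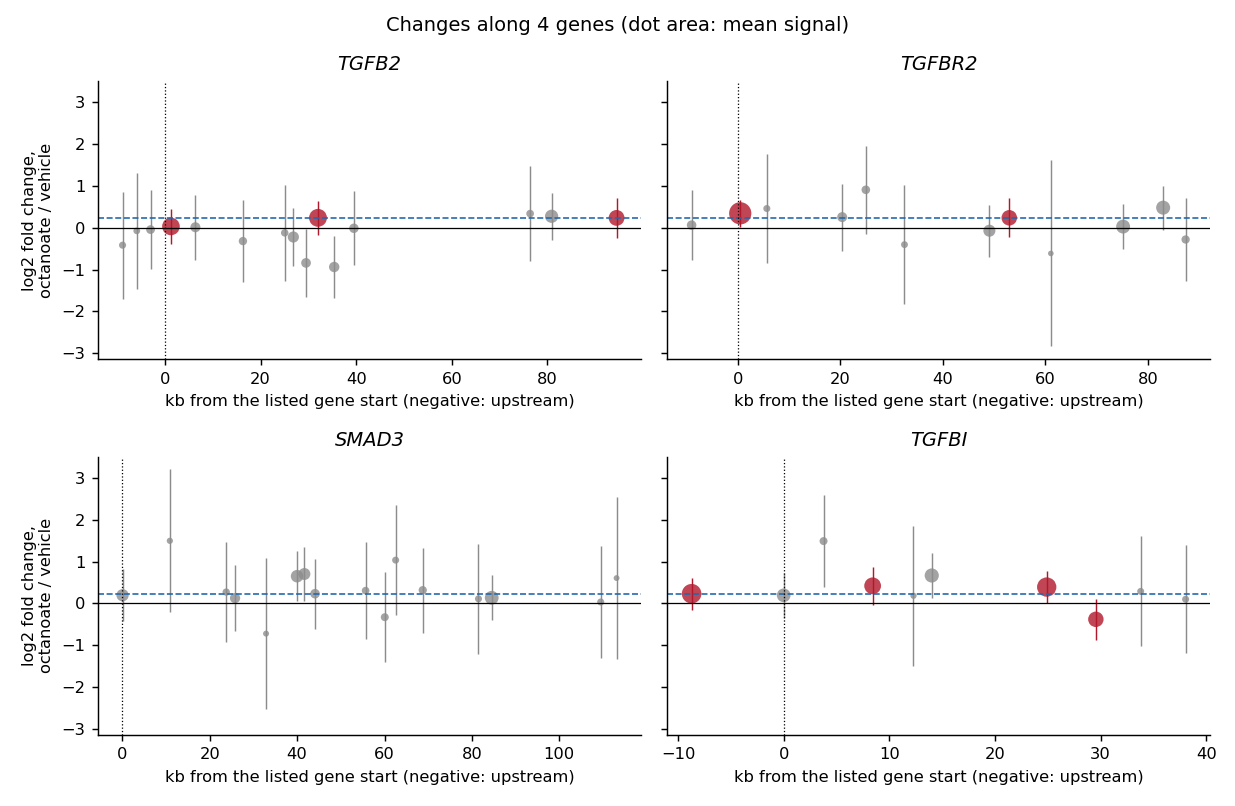
Log2 fold change of the regions along TGFB2, TGFBR2, SMAD3 and TGFBI against distance in kb from the listed gene start (dotted line), with 95% intervals; dot area grows with mean signal, red marks tested regions and the dashed line is the median of all listed regions. The 2 low TGFB2 regions at -0.84 and -0.94 flank a stronger one at 0.24, and the TGFBI regions from 3.8 to 24.9 kb lie above 0.

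Counting weak regions as well, 8 of the 91 had an unadjusted p under 0.05 in the authors' deposited table, 6 of them outside the adjustment. The 6 higher ones were a share of 6.59% against 3.58% of all listed regions, and the 2 lower ones a share of 2.20% against 0.179%. They came from TGFB2, TGFBR2, SMAD3 and TGFBI, and the other 5 genes had 0. The members' regions were stronger than average, with a median of 20.8 normalized reads against 12.2 and a median standard error of 0.48 against 0.61, and the part of this in the shares was not tested. Regions of 1 gene are neighbours and are not replicates of each other.

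Starts were compared with the other regions of the same genes. The 14 regions at member starts had 0.065 as their median log2 fold change, against 0.18 for the remaining 77, a difference of -0.12 from the authors' deposited table. Over all regions the 12032 at starts of protein-coding genes were at 0.14 and the rest at 0.25, a difference of -0.11. The classes are not alike, since the members' class holds only a gene's own starts, and 3 regions at the starts of other genes count among the remaining 77. SMAD3 gave 3 and SMAD7 gave 4 of the 14, whose values ran from -0.72 to 0.34, and the difference was not tested.

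Other genes of the pathway were taken from 5 lists of textbook roles, 56 genes with 298 regions, 49 of them tested. Of the 49, in the authors' deposited table, a total of 2 had an adjusted p under 0.05 (DESeq2), both higher, where 1.02% of all tested regions had one. At an unadjusted p under 0.05 the authors' deposited table held 10 of the 49 as higher, or 20.4% against 14.8% of all tested regions, and 0 as lower, against 0.107%. The median of the 298 regions was 0.22. Among latency and activation genes 0 of 9 tested regions passed and 2 had an unadjusted p under 0.05, a region inside LTBP1, a latent TGF-beta binding protein, at 0.61 and one at the start of FURIN, the protease that cleaves the TGF-beta precursor, at 0.61. Other receptors and co-receptors, with 8 tested regions and a median of 0.096 over all 63, and Smads and their partners, with 7 tested regions and a median of 0.22 over all 39, had 0 tested regions at either limit. The smallest p of the receptor list was at a weak, untested region inside ACVR1, a type I receptor, at 1.25 (unadjusted p 0.00452 in the authors' deposited table). That of the Smad list, near FOXH1, was at 0.42 with an adjusted p of 0.435 (DESeq2), in a region that overlaps neighbouring genes.

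The 2 regions that passed lay at SKI and near ID2. Inhibitors and turnover genes had 13 tested regions, 12 of them above 0 and 1 past the adjusted threshold. This was a broad region over one end of SKI, a repressor of Smad-driven transcription (chr1:2227017-2232798, 331 normalized reads). Its log2 fold change was 0.56 (standard error 0.13, adjusted p 0.00561 by DESeq2) in the authors' deposited table. In this list 3 further tested regions had an unadjusted p under 0.05, 1 more inside SKI at 0.67 and 2 at PMEPA1, a feedback inhibitor, at 0.63 and 0.56. Textbook targets had 12 tested regions, 10 of them above 0 and 1 past the adjusted threshold. This one lay 3.1 kb upstream of the start of ID2, an inhibitor of basic helix-loop-helix factors (chr2:8678266-8679637, 179 normalized reads). Its log2 fold change was 0.62 (standard error 0.16, adjusted p 0.0190 by DESeq2) in the authors' deposited table. The ID2 start was at 0.47, the ID1 start at 0.39 and a region at KLF10 at 0.33, each with an unadjusted p under 0.05 and none past the adjusted threshold. The ID2 and ID1 start regions and the PMEPA1 region at 0.56 also lie within 1 kb of starts of ID2-AS1, LOC105372588 and NKILA, respectively. After centring, the log2 fold changes were 0.37 at SKI and 0.44 near ID2, with p-values of 0.00356 and 0.00640 recomputed from the authors' deposited table. Their adjusted p-values were then 0.569 and 0.723, so neither passed the threshold.

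**Figure D4:**
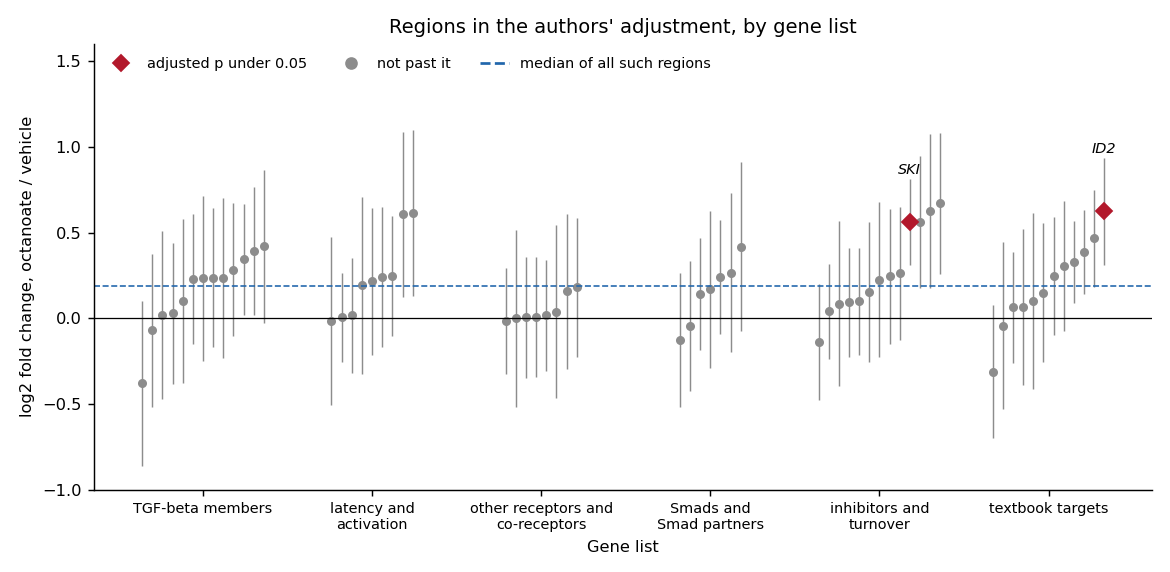
Log2 fold change with 95% interval of each tested region, sorted within the 9 genes (left) and within the 5 lists of other pathway genes. Red diamonds have an adjusted p under 0.05 and the dashed line is the median of all tested regions, 0.19; the diamonds are the SKI region at 0.56 and the ID2 region at 0.62, and 0 of the 13 member regions is one.

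The label of the cells was checked against markers of melanocytes and of other cell types. A region lay within 1 kb of a start (or of either gene end where no start is listed) of 5 of 8 melanocyte lineage genes, with means up to 168 normalized reads at MITF, the lineage's master regulator; the starts of TYR, MLANA and TYRP1 had none. The same held for 5 of 5 fibroblast genes, 1 of 5 epithelial, 3 of 5 leukocyte and 1 of 4 endothelial genes, with highest means of 130, 15.7, 70.1 and 37.9. Few regions of these lists were tested, 4, 1, 0, 5 and 2 in the order given, and 0 of them had an adjusted p under 0.05 (DESeq2) in the authors' deposited table, against 1.02% of all tested regions. At an unadjusted p under 0.05 these lists held 1 tested region, inside TEK at 0.38, where 14.8% of all tested regions were higher. An open region at a gene does not show that the gene is expressed.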

How the data were processed

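ATAC-seq of 4 A375 libraries was analysed from 1 table with 0 columns of values per library. The submitters' processing notes name Trim Galore, cutadapt, FastQC, Bowtie2, Picard, MACS2, featureCounts, DESeq2, bedtools 2.29.1 and build hg38, with no roles or settings; whether reads were shifted for the Tn5 cut and how regions were merged are not given in the sources used here. Per the file headers, the deposited signal is a mean normalized read count, the deposited log2 values are the fold change and its standard error, the deposited score is their ratio (the Wald statistic) and the deposited p-values are raw and adjusted. The scaling behind the signal is not stated. Per the labels' protocols an average of 40 to 50 M paired-end reads per sample was sequenced; the depth of each library is unknown here.

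The deposited adjusted p equalled Benjamini-Hochberg over the 11185 tested regions to within 1.69e-14 and was 1 in the other 114801, which were treated as not tested. Region starts in the table were taken as counted from 0 and raised by 1. Spans and starts came from RefSeq GRCh38.p14; all 9 members matched by symbol. Exons and introns were not analysed here. The 95% intervals use the normal distribution and the deposited standard errors. Centring subtracted the tested median, recomputed p from the normal distribution and adjusted over tested regions (Python 3.11.15, scipy 1.17.1, numpy 2.4.6, pandas 2.3.3, matplotlib 3.10.9); this was tested on simulated data. The members and lists were chosen with earlier results of these data known, and no test over a list was made. Every member is named; single regions are the strongest at a gene's start, with the highest mean, with the 2 smallest p-values per gene or tested with a p under 0.05, and the other tested regions and extremes were named after their values were seen. The rule for the other pathway lists names regions past the adjusted threshold or else the smallest p of the list. Tested regions of those lists with an unadjusted p under 0.05 were named in addition, after their values were seen. Alternatives covered the adjustment, threshold, centring, window, regions counted and distance to a start.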

Additional observations from a re-analysis of the deposited data

How the results depend on the processing

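The count of 0 member regions past the adjusted threshold (DESeq2) was also 0 with adjustment over all listed regions, with centring on the tested median and with windows of 50 kb (148 regions). Thresholds of 0.1 and 0.01 and windows of 0 kb (77 regions) gave 0 as well, but could give nothing else, since the lowest adjusted p of the members is 0.300 and those windows hold a subset of the same regions. The 2 tested members at an unadjusted p under 0.05 became 1 after centring, a different region and a lower one, 4 with windows of 50 kb and 8 when weak regions were counted; the last 2 add regions by construction. The members' median log2 fold change of 0.13 turned to -0.095 when the median of all regions was subtracted, since that median is larger. It lay between 0.10 and 0.18 without each gene in turn. The start difference of -0.12, close to the -0.11 of all regions, was -0.13 in tested members against -0.066 in all tested regions. After centring, the counts of tested regions at an unadjusted p under 0.05 fell from 2 to 0 for latency and activation. They fell from 4 to 2 for inhibitors and from 4 to 2 for targets, the last being 1 higher and 1 lower region. Of the 8 member regions with an unadjusted p under 0.05, 5 no longer had one after centring; the 2 at TGFB2 and the TGFBI region at 3.8 kb still had one.

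No paired analysis was possible because the values used here are averages and contrasts over all libraries. Leaving out a replicate, other scalings and count tests were likewise not run.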
